A study of Mus musculus with 3 samples.

Results

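The blood and endothelial progenitor genes described here are 10 of the 17633 genes that had a read in any library: *Kdr*, *Tal1*, *Etv2*, *Lmo2*, *Runx1*, *Gata1*, *Gata2*, *Fli1*, *Pecam1* and *Cdh5*. They were chosen by name for their known roles. No measured value entered the rule, but earlier results of these data were known when the choice was made. The paper had used *Kdr*, under its other name *Flk1*, as a mesoderm marker to check the dissection. All 10 had reads in each of the 3 libraries.

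RNA was sequenced from the endoderm, the mesoderm and the epiblast of untreated mouse embryos of the ICR strain at embryonic day 7.5, with 1 library per germ layer. The embryonic portion of each embryo was cut off, and its layers were then separated with enzymes and by hand. RNA of many embryos was pooled, and the epiblast sample also contained the early neuroectoderm and the primitive streak. Per library, 41.7 M (endoderm), 40.8 M (mesoderm) and 42.7 M (epiblast) uniquely mapped reads were stated in the tables.

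In the mouse, the first blood and endothelial cells come from mesoderm that has left the primitive streak, most of it destined for the yolk sac, and the earliest such cells carry the VEGF receptor Kdr. The ETS factor Etv2 and the basic helix-loop-helix factor Tal1, which works in complexes with Lmo2 and GATA factors, direct this mesoderm to both fates. Runx1 is needed later for definitive blood stem cells, and Pecam1 and Cdh5 are adhesion molecules of the endothelial surface.

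Of the 10 genes, 8 had their highest level in mesoderm and 2, *Runx1* and *Gata1*, in endoderm. None was highest in epiblast. On the RPKM scale (reads scaled to gene length and library size), the 10 genes had a median of 6.08 in mesoderm, against 0.403 for endoderm and 0.462 for epiblast. Because whole layers were sequenced, fewer cells of a type and less RNA per cell cannot be told apart. With 1 library per layer no difference has a replicate check. The intervals given with folds are exact 95% counting intervals and cover counting error only.

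**Figure D1:**
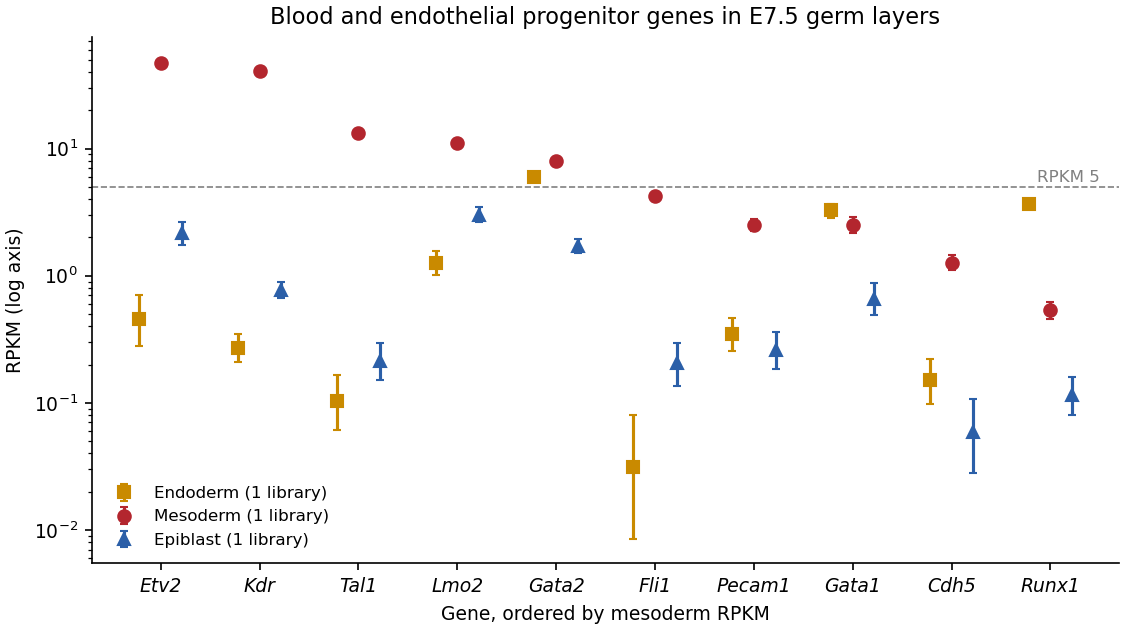
RPKM of each of the 10 genes (log axis) in endoderm, mesoderm and epiblast, 1 library each, with exact 95% Poisson counting intervals as error bars and a dashed line at RPKM 5. Mesoderm is the highest symbol for 8 genes, and endoderm for Runx1 and Gata1.

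RefSeq start sites on GRCm38.p6 were found for 6 of the 10 genes, with 9 windows in all, each made of the 250 bases before a start. The windows of *Kdr* and *Etv2*, the first window of *Tal1* and those of both genes highest in endoderm are shown 5′ to 3′. The letters can thus be read beside the levels. Each window shown holds a motif match. The second window of *Tal1* and both windows of *Gata2* held no match and are not shown. Capitals mark matches on either strand to any of 4 motifs. The GATA factor motif was AGATAA or alternatively TGATAA. The motif of RUNX factors was TGTGGT. The E-box of Tal1 dimers was CAGCTG or else it was CATCTG. The motif of ETS factors was CAGGAA or else it was CCGGAA.
Kdr, chr5:75978456-75978705, minus strand: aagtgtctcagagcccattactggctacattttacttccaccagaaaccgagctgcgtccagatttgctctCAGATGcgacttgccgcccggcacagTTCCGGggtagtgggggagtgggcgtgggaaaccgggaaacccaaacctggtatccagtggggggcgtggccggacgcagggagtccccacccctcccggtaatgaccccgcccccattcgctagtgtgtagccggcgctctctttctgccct
Etv2, chr7:30635853-30636102, minus strand: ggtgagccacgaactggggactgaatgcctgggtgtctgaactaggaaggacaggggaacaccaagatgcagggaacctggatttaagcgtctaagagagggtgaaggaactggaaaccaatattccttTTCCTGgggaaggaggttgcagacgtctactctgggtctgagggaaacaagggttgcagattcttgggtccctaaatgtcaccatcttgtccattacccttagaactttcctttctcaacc
Tal1, first start site, chr4:115056176-115056425, plus strand: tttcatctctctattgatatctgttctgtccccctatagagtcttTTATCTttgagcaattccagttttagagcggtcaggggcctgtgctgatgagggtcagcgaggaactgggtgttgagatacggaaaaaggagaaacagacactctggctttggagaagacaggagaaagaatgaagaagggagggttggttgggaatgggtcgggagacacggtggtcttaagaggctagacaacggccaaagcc
Runx1, distal start site, chr16:92826075-92826324, minus strand: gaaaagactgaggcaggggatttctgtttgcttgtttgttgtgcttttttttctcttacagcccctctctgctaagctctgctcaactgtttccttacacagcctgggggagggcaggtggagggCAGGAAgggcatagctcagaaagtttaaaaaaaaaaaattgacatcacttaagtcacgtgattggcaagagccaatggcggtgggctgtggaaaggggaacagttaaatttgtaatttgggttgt
Runx1, proximal start site, chr16:92697330-92697579, minus strand: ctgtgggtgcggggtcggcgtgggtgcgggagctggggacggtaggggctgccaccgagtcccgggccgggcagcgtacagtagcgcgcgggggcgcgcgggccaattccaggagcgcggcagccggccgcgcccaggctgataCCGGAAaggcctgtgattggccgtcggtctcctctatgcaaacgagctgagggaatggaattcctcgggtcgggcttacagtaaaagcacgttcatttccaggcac
Gata1, chrX:7967911-7968160, minus strand: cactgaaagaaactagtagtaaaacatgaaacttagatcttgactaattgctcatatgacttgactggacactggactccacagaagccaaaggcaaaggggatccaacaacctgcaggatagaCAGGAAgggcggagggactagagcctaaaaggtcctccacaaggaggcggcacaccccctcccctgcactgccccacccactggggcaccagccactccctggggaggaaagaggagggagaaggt

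An ETS match lay in 5 of the 9 windows, belonging to *Kdr*, *Etv2*, *Gata1* and both starts of *Runx1*, and 35.1% of the 32851 windows of this length held one. The E-box letters occurred in the window of *Kdr*, against 25.5% of all windows. The GATA letters occurred in the first window of *Tal1*, against 16.6% of all windows. No member window held the RUNX letters, which 14.0% of all windows held. None of the matches overlapped another. These are matches of letters and not mapped binding sites. The windows with ETS letters thus stood before genes highest in mesoderm and before both genes highest in endoderm.

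Among the receptors and factors that start the lineage, *Kdr* on chromosome 5 (75932827 to 75978458, GRCm38, GENCODE M21) had 9100 mesodermal reads, beside 62 from endoderm and 180 from epiblast. The RPKM values were 40.8, 0.272 and 0.771 in the same order. The mesodermal level was 150 times that of endoderm (117 to 195) and 52.9 times that of epiblast (45.6 to 61.6). By RPKM, *Kdr* stood above 88.1% of the genes listed in the mesoderm library.

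*Etv2*, on chromosome 7 (30633616 to 30635852), was the most abundant member. It had 20, 2026 and 97 reads in endoderm, mesoderm and epiblast, or RPKM 0.457, 47.2 and 2.16. Its mesodermal level was 103 times that of endoderm (66.7 to 169) and 21.8 times that of epiblast (17.8 to 27.1). It stood above 89.7% of the genes listed in mesoderm, next to *Kdr* in the order of the members.

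*Tal1*, on chromosome 4 (115056426 to 115071755), had 18, 2259 and 38 reads and RPKM 0.104, 13.3 and 0.214. The mesodermal level was 128 times that of endoderm (80.8 to 216) and 62.1 times that of epiblast (45.1 to 88.1). *Fli1*, a second ETS factor of endothelial and blood cells on chromosome 9 (32422204 to 32542861), had 4, 533 and 27 reads and RPKM 0.0311, 4.23 and 0.205. It was thus lower than *Etv2* in every layer, with mesoderm 136 times endoderm (52.8 to 501) and 20.6 times epiblast (14.0 to 31.6).

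*Lmo2*, the bridging protein of the Tal1 complex on chromosome 2 (103957986 to 103981878), had 87, 740 and 213 reads and RPKM 1.27, 11.0 and 3.03. Mesoderm exceeded endoderm by 8.67 times (6.94 to 11.0) and epiblast by 3.63 times (3.11 to 4.25). Its partner *Tal1* was higher than *Lmo2* in mesoderm but lower in the other layers.

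By RPKM in the mesoderm library, the endothelial surface genes were the lowest of the members that peaked in mesoderm. This order did not hold in the other libraries. *Pecam1*, on chromosome 11 (106654217 to 106750628), had 48, 342 and 37 reads and RPKM 0.349, 2.53 and 0.262. *Cdh5*, the VE-cadherin gene on chromosome 8 (104101625 to 104144511), had 25, 208 and 10 reads and RPKM 0.15, 1.27 and 0.0585. Neither reached RPKM 5 in any library. Mesoderm exceeded endoderm by 7.27 times for *Pecam1* (lower bound 5.36) and by 8.48 times for *Cdh5* (5.59 to 13.4). Against epiblast the folds were 9.66 (6.87 to 14.0) and 21.7 (11.6 to 46.0).

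*Gata2*, a GATA factor of blood progenitors on chromosome 6 (88193891 to 88207032), was shared between layers. It had 816, 1055 and 238 reads and RPKM 6.01, 7.93 and 1.71. Mesoderm and endoderm differed by 1.32 times (1.2 to 1.45), while mesoderm was 4.63 times (4.02 to 5.36) and endoderm 3.52 times (3.04 to 4.08) the epiblast level. *Gata1*, the erythroid GATA factor on chromosome X (7959260 to 7978071), had 246, 184 and 51 reads and RPKM 3.27, 2.49 and 0.661. It was 1.31 times higher in endoderm than in mesoderm (1.08 to 1.6) and 4.95 times higher in endoderm than in epiblast (3.65 to 6.82). Both GATA genes thus had 2 layers at similar levels and a lower epiblast.

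*Runx1*, on chromosome 16 (92601466 to 92826149), was highest in endoderm and lowest in epiblast. Its reads numbered 1086, 156 and 35 in endoderm, mesoderm and epiblast, at RPKM 3.65, 0.535 and 0.115. Endoderm was 6.83 times mesoderm (5.77 to 8.13) and 31.8 times epiblast (22.7 to 45.9), and mesoderm was 4.66 times epiblast (3.21 to 6.93). An exon of *Gm26626* overlaps *Runx1* on the opposite strand, and it is not given whether the counting used strand, so reads of the pair cannot be told apart.

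The criteria of the study were then applied over the whole table, namely RPKM above 5 in at least 1 library of the pair, a fold above 2 and a false discovery rate below 0.001 by the exact test of Audic and Claverie, which compares 2 libraries and not 2 conditions. In mesoderm over endoderm, 4 members met them, *Kdr*, *Tal1*, *Etv2* and *Lmo2*, where 4.41% of the 17194 genes tested did. In the other direction 0 members met them, where 7.44% of genes did. In mesoderm over epiblast, 5 members met them, the same 4 and *Gata2*, where 2.58% of 17100 genes did, and 0 did in epiblast over mesoderm, where 2.45% of genes did. In endoderm over epiblast the only member was *Gata2*, where 8.02% of 17267 genes met the criteria, and in epiblast over endoderm there were 0, where 4.58% did.

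Only 5 members reached RPKM 5 in mesoderm, and the other 5 exceeded it in no library. With the level criterion at RPKM 1, the members higher in mesoderm than in endoderm came to 7, with *Fli1*, *Pecam1* and *Cdh5* added, where 8.24% of genes met it. *Runx1* was then the 1 member higher in endoderm than in mesoderm, where 11.4% of genes were. In mesoderm over epiblast 9 members met it, all but *Runx1*, where 4.89% of genes did, and none did in epiblast over mesoderm, where 5.87% did. *Runx1*, *Gata1* and *Gata2* were the 3 members higher in endoderm than in epiblast, where 11.7% of genes were. *Etv2* and *Lmo2* were the 2 members higher in epiblast than in endoderm, where 8.91% of genes were.

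The median log2 ratio of the 10 members was 3.10 for mesoderm over endoderm, beside 0.03 for all genes tested. It was 3.82 for mesoderm over epiblast, beside 0.04, and -0.32 for endoderm over epiblast, beside -0.02. All 10 members were more than 2 times higher in mesoderm than in epiblast, as were 10.1% of genes tested. Ordered by the fold of mesoderm over endoderm among 8867 genes above RPKM 5 in the pair, *Kdr* was number 2, *Tal1* number 5, *Etv2* number 10 and *Lmo2* number 134, while *Gata2* was number 2554. Against epiblast, *Tal1* was number 7, *Kdr* number 8, *Etv2* number 34, *Gata2* number 161 and *Lmo2* number 204 of 8340 genes. *Gata2* thus lay far below *Lmo2* in the order against endoderm and above it in the order against epiblast.

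**Figure D2:**
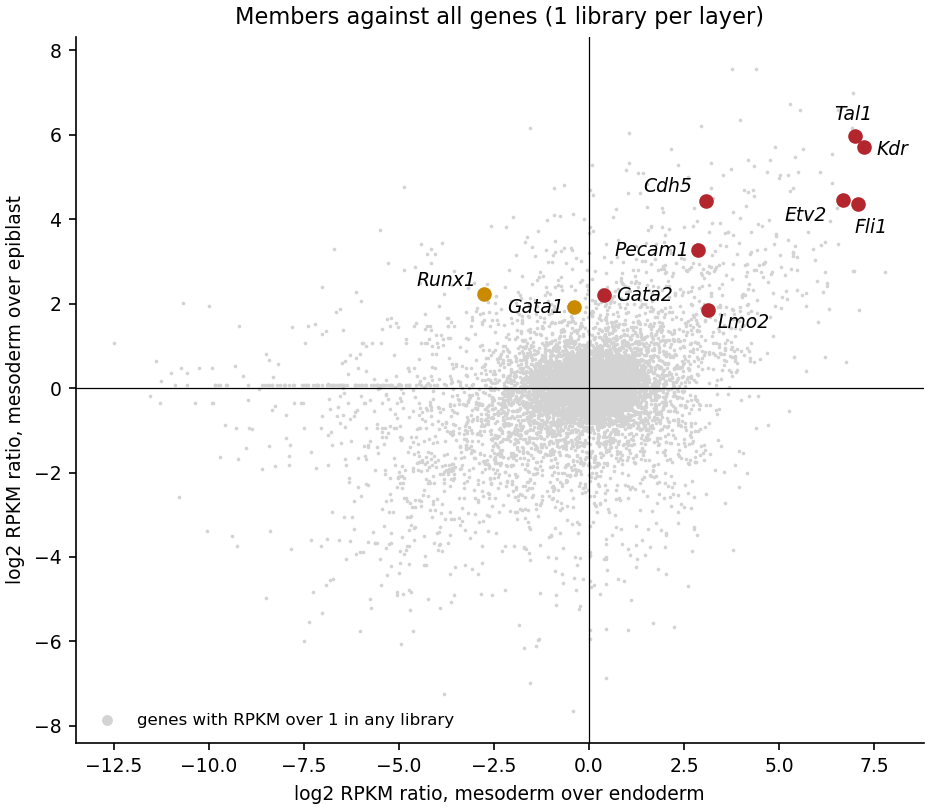
Log2 RPKM ratio of mesoderm over endoderm (horizontal axis) and of mesoderm over epiblast (vertical axis) for the 10 members and for genes with RPKM over 1 in any library (grey), 1 library per layer, with 3 reads standing for a lower count. Members in red were higher in mesoderm than in endoderm and those in gold lower; Kdr, Tal1, Etv2 and Fli1 lie at the upper right and all 10 lie above 0 on the vertical axis.

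Outside mesoderm, the members fell into groups by how much of the mesodermal level was left. In endoderm, 4 genes stood below 1% of it, *Kdr* at 0.668%, *Fli1* at 0.736%, *Tal1* at 0.781% and *Etv2* at 0.968%. *Lmo2* stood at 11.5%, *Cdh5* at 11.8% and *Pecam1* at 13.8%, and *Gata2* at 75.9%. The intervals of the folds of *Kdr* and *Pecam1* over endoderm do not overlap, but they cover counting error only, with 1 library per layer. In epiblast the share ran from 1.61% for *Tal1* and 1.89% for *Kdr* to 10.3% for *Pecam1* and 27.5% for *Lmo2*. What part carry-over between dissected layers had in these low levels was not tested.

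For the members highest in mesoderm, the other layers were also compared with each other. In epiblast over endoderm, *Etv2* was 4.73 times, *Kdr* 2.83 times and *Lmo2* 2.39 times higher. *Pecam1* was 1.33 times higher in endoderm than in epiblast, with an interval of 0.848 to 2.1 that includes 1. *Tal1* was 2.06 times higher in epiblast (1.15 to 3.83), and *Cdh5* 2.56 times higher in endoderm (1.19 to 5.98), but both missed the false discovery rate. *Fli1* was 6.58 times higher in epiblast (2.29 to 25.9), but its level in endoderm rests on 4 reads.

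The labels of the libraries were compared with marker lists. Of 12 visceral endoderm genes, 10 met the criteria in endoderm over mesoderm and 12 in endoderm over epiblast. Of all genes, 7.44% and 8.02% did. In mesoderm over endoderm, 1 of the 12, *Gata6*, met them. Of 9 epiblast genes, 9 did in epiblast over mesoderm and 7 in epiblast over endoderm, beside 2.45% and 4.58% of all genes. Of 16 genes of extra-embryonic and lateral mesoderm, 13 did in mesoderm over endoderm and 10 in mesoderm over epiblast. Of all genes, 4.41% and 2.58% did. The median log2 ratio of these 16 genes was 3.67 and 2.80. The lists include *Sox17*, *Foxa2*, *Foxf1* and *Sox2*, which the paper had used as markers to check the dissection. Genes of adult globin, which would mark maternal blood, had at most 2 reads in any library, with 2 of the 6 listed. Of 9 trophoblast genes 6 were listed, while *Tpbpa*, *Prl2c2* and *Prl3d1* were in no library. *Plac1* (RPKM 19.9, 6.25 and 0.569 in endoderm, mesoderm and epiblast) and *Esx1* (7.11, 0.0606 and 0.13) met the criteria in endoderm over mesoderm. The other 4 listed genes were highest in epiblast. Of these, *Cdx2* (18.4, 20.9 and 37.1) met the criteria in epiblast over endoderm and *Eomes* (9.51, 7.01 and 14.5) in epiblast over mesoderm.

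In a list of 21 VEGF, apelin and inducing signal genes, 6 met the criteria in mesoderm over endoderm (*Flt1*, *Nrp1*, *Aplnr*, *Bmp4*, *Ptch1* and *Fgfr1*) and 2 in the other direction (*Apln* and *Ihh*), beside 4.41% and 7.44% of all genes tested. Against epiblast, 8 did in mesoderm and 1, *Apln*, in epiblast, beside 2.58% and 2.45% of all genes. The median log2 ratio of the list was 1.02 and 1.22.

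*Vegfa*, which encodes a ligand of Kdr, had RPKM 31.9, 16.2 and 5.49 in endoderm, mesoderm and epiblast. Its order was therefore the reverse of the receptor's between endoderm and mesoderm. The apelin receptor gene *Aplnr* had 16.6, 101 and 33.7, while its ligand *Apln* had 21.4, 1.68 and 35.7. *Bmp4*, which induces posterior mesoderm, had 1.11, 33.6 and 2.69, and *Ihh*, a hedgehog ligand of visceral endoderm that acts on yolk sac blood formation, had 17.9, 0.169 and 0.162. For *Vegfa* with *Kdr* and for *Apln* with *Aplnr*, the layer with most receptor RNA was not the layer with most ligand RNA. Other VEGF family genes of the list went the other way and were highest in mesoderm, as *Kdr* was. These were *Vegfb* (33.0, 42.0 and 41.3), *Vegfc* (0.0638, 2.12 and 0.573) and *Pgf* (0.086, 1.83 and 0.434).

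In a list of 23 further blood and endothelial transcription factors and cofactors, 17 had their highest RPKM in mesoderm, and 4 met the criteria in mesoderm over endoderm (*Ldb1*, *Ets1*, *Meis1* and *Ssbp3*) with 0 in the other direction, beside 4.41% and 7.44% of all genes. The median log2 ratio was 1.12 against endoderm and 1.33 against epiblast. Of the cofactors of the Lmo2 complex, *Ldb1* had 37.9, 82.3 and 73.5 RPKM and *Ssbp3* 53.9, 117 and 87.6, while *Ssbp2* had 0.555, 1.9 and 3.38. *Zfpm1*, the FOG1 partner of GATA factors, had 20.7, 38.7 and 4.9, the low epiblast level seen also for *Gata1* and *Gata2*. In mesoderm over epiblast, 4 genes of the list met the criteria (*Zfpm1*, *Ets1*, *Hhex* and *Meis1*), beside 2.58% of all genes. *Myb*, a factor of definitive blood progenitors, was the 1 gene of the list that met them in epiblast over mesoderm, beside 2.45%. The RPKM values of *Myb* were 0.324, 0.441 and 7.02.

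The families of the members held genes of several layer orders. *Tal2*, a relative of *Tal1*, had RPKM 1.95, 0.278 and 4.91 in endoderm, mesoderm and epiblast, and *Lyl1*, another relative, had 0, 34 and 8 reads, the order of layers of *Fli1* and *Tal1*. The RUNX partner gene *Cbfb* was at 31.2, 36.5 and 26.1, whereas *Runx2* had 8, 28 and 8 reads. Of the other GATA genes, *Gata4* had 61.4, 36.0 and 2.15, *Gata6* 15.0, 31.2 and 0.77, and *Gata5* 0.785, 10.7 and 0.0567. These had their lowest level in epiblast, whereas *Gata3*, at 5.02, 2.53 and 3.49, was lowest in mesoderm. Of 26 ETS genes, 3 met the criteria in mesoderm over endoderm (*Etv2*, *Ets1* and *Etv6*) and 3 in the other direction (*Elf1*, *Elf3* and *Etv5*), where 4.41% and 7.44% of all genes did. *Erg*, an endothelial ETS gene, had 2, 74 and 6 reads, the order of *Fli1* at a lower count.

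**Figure D3:**
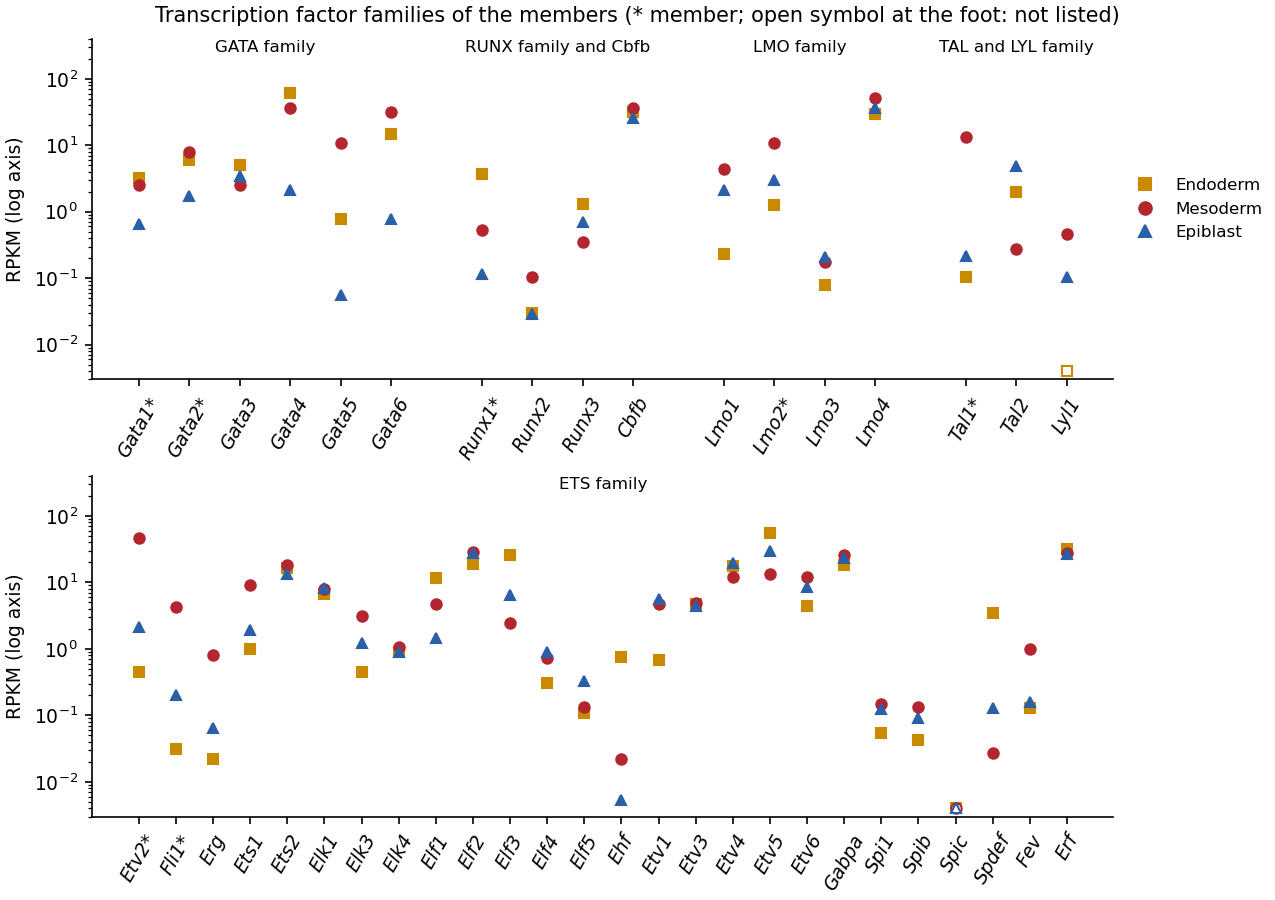
RPKM (log axis) in endoderm, mesoderm and epiblast, 1 library each, of the GATA, RUNX, LMO, TAL and LYL, and ETS families; members carry an asterisk and an open symbol at the foot means not listed in that library. Tal1 and Etv2 are highest in mesoderm at 13.3 and 47.2, and Runx1 is highest in endoderm at 3.65.

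Of 22 endothelial surface and junction genes, 21 were listed and 3 exceeded RPKM 5 in any library, *Egfl7*, *Ramp2* and *Eng*. *Eng*, a TGF-beta co-receptor of endothelium, met the criteria in mesoderm over endoderm, at 0.101, 6.43 and 1.11 RPKM, and *Ramp2*, a co-receptor for adrenomedullin, in the other direction, at 24.1, 11.8 and 7.33. *Tek*, the angiopoietin receptor gene, had 6, 419 and 90 reads, and *Sele* was listed in no library. The median log2 ratio of the list was 1.43 for mesoderm over endoderm and 0.69 for mesoderm over epiblast.

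Of 15 primitive erythroid and megakaryocyte genes, 10 were listed in any library, 0 exceeded RPKM 5 and 0 met the criteria in any pair. Summed over the list, mesoderm had 404 reads, epiblast 352 and endoderm 89. The erythropoietin receptor gene *Epor* had 27, 165 and 258 reads in endoderm, mesoderm and epiblast (RPKM 0.354, 2.21 and 3.3), and *Alas2*, for haem synthesis in red cells, had 21, 120 and 43. The embryonic globin gene *Hbb-bh1* had 37 mesodermal reads and 0 elsewhere, and *Hbb-y*, *Hba-x*, *Gp1bb* and *Gp9* were among the genes listed in no library. A gene listed in no library may have had no read or may have been missing from the annotation used, and these cannot be told apart. *Klf1*, an erythroid factor, had 8, 29 and 16 reads, and *Gfi1b* 0, 34 and 1. Beside these, *Gata1* had more reads in endoderm than the whole list together.

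Genes of definitive blood and myeloid cells gave values to set beside *Runx1*. Of 14 such genes, 12 were listed. *Ptprc*, which encodes the pan-leukocyte antigen CD45, had 0, 0 and 2 reads, *Csf1r*, the macrophage growth factor receptor gene, had 20, 0 and 0, and *Itgam* had 0, 2 and 0. *Lyz2* and *Cd48* were listed in no library. With at most 2 reads in any library, *Ptprc* and *Itgam* cannot show a difference between layers. *Lcp1*, an actin-bundling protein gene of leukocytes and other cells, had RPKM 58.1, 1.57 and 0.497 in the 3 layers, and *Kit* had 8.52, 3.56 and 8.01. These 2 genes met the criteria in endoderm over mesoderm, and 0 did in the other direction, beside 7.44% and 4.41% of all genes.

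The genes most like each member were found among 9135 genes above RPKM 5 in any library, by the summed difference between the percentage shares of RPKM that the 3 libraries held. For *Kdr* the nearest was *Tal1*, at 0.547 percentage points, and then *Hand2* at 0.951, *Myl1* at 1.45, *Tnnt2* at 2.85 and *Alx1* at 5.09. *Fli1* was nearest to *Etv2*, at 0.501. *Etv2* was nearest to *Foxf1a*, a gene of extra-embryonic and lateral mesoderm, at 1.29. *Lmo2* was nearest to *Fbln2* at 0.785, *Pecam1* to *Lhfp* at 1.5 and *Cdh5* to *Twist1* at 2.23. *Runx1* was nearest to *Ppfibp2*, at 0.215, *Gata1* to *Fgfrl1* at 3.08 and *Gata2* to *Lhfpl2* at 2.86. With 3 libraries such likeness is a description only.

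The share of a gene's length covered by reads differed among members at like depth. *Lmo2* was covered over 66.0% of its length in endoderm and 79.0% in epiblast, where genes with 0.5 to 2 times its reads per kilobase had medians of 86.3% and 94.3%. In mesoderm it was covered over 96.0%, beside a median of 97.0%. The reads of *Lmo2* outside mesoderm thus lay on less of the gene than those of most genes at that depth, above 10.7% and 9.68% of them. *Runx1* in endoderm was covered over 89.7%, beside 94.7%, and *Gata1* over 97.5%, beside 94.1%. *Fli1*, with its 4 reads in endoderm, was covered over 10.9%, beside 10.6%.

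**Figure D4:**
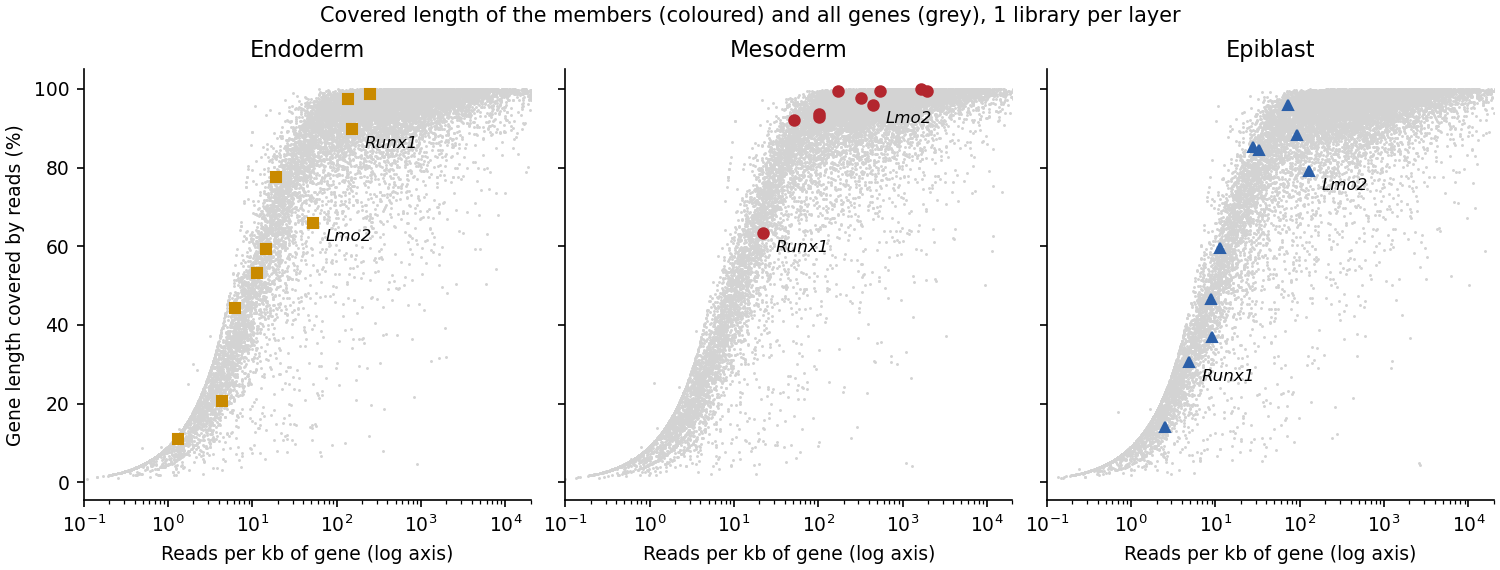
Percentage of gene length covered by reads (vertical axis) against reads per kilobase of gene (log axis) for the 10 members (coloured) and all genes (grey) in each library. Lmo2 lies below most genes of like depth in endoderm (66.0%) and epiblast (79.0%), and with them in mesoderm (96.0%).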

How the data were processed

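Libraries of endoderm, mesoderm and epiblast (1 per layer) were mapped to groups from the sample labels. The authors deposited, for each library, the count of uniquely mapped reads per gene, RPKM values (reads scaled to gene length and library size), gene length and the percent of the gene covered. The submitters' processing notes name TopHat and the builds mm10 and mm9 without a role, and the aligner, annotation and counting settings of the gene tables are not given in the sources used here. RPKM recomputed from the deposited counts differed by at most 2.03e-07 in relative terms. Genes not listed in a library were taken as 0 reads.

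The members and lists were chosen with earlier results of these data known. All 10 members were named, with at most 6 genes a list by highest RPKM, genes listed in no library, and nearest genes; other list genes were named after their values were seen. A gene of the lists is not named here. Calls needed RPKM above 5, a fold above 2 and a Benjamini-Hochberg false discovery rate below 0.001 on the deposited counts, by the exact Audic-Claverie test taken on both sides. Folds are RPKM ratios with Clopper-Pearson 95% intervals, and 3 reads stood for a lower count. A quasi-likelihood model cannot be fitted with 1 library per layer. Alternatives were RPKM above 1 or 10, no level filter, a fold above 4, other scalings, Benjamini-Yekutieli adjustment and edgeR's exact test, for which a BCV (biological coefficient of variation) of 0.2 or 0.4 was assumed. Positions are from GENCODE M21 (GRCm38) and promoters from RefSeq (GRCm38.p6). Python 3.11.15, SciPy 1.17.1, pandas 2.3.3, R 4.3.3, edgeR 4.0.16 and DESeq2 1.42.0 (size factors) were used.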

Additional observations from a re-analysis of the deposited data

How the results depend on the processing

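No paired analysis was possible because each layer has 1 library and the labels carry no replicate numbers, and no replicate could be left out. With RPKM above 1, the members higher in mesoderm than in endoderm, in endoderm than in mesoderm, in mesoderm than in epiblast, in endoderm than in epiblast and in epiblast than in endoderm came to 7, 1, 9, 3 and 2, and the calls summed over the lists to 238 instead of 154. With no level filter these were 7, 1, 10, 3, 4 and 295. RPKM above 10 or a fold above 4 each left 0 members higher in endoderm than in epiblast, and 4 higher in mesoderm than in epiblast, with *Gata2* lost at the former and *Lmo2* at the latter. With an assumed BCV of 0.4, edgeR's exact test left 3 members higher in mesoderm than in epiblast, 0 higher in endoderm than in epiblast and 65 list calls, and 3 members higher in mesoderm than in endoderm, with *Lmo2* lost. These drops follow from fewer genes passing the stricter level, fold or spread. TMM, median-of-ratios and upper-quartile scaling, Benjamini-Yekutieli adjustment and a BCV of 0.2 gave 4, 5 and 1 members higher in mesoderm than in endoderm, in mesoderm than in epiblast and in endoderm than in epiblast, as reported. Of 90 member folds under the 3 scalings, 0 reversed, and the largest move was 9.14%. TMM moved the median log2 ratio of all genes from 0.03 to -0.08 for mesoderm over endoderm and from -0.02 to 0.09 for endoderm over epiblast, and upper-quartile scaling moved the latter to -0.16. Folds at fewer than 5 reads, as for *Fli1* in endoderm, are limited by depth.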

Other observations

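Several listed genes had the layer pattern of *Gata1* and *Gata2*, with endoderm and mesoderm both above epiblast. *Sox7*, an endothelial and endodermal SOX factor, had RPKM 3.29, 3.57 and 0.151 in endoderm, mesoderm and epiblast. *Hhex*, a homeobox gene of anterior visceral endoderm and blood islands, had 11.2, 5.74 and 0.727. *Nrp1*, a VEGF co-receptor gene, had 11.6, 24.2 and 0.368, and *Bmp2* had 24.8, 13.0 and 0.489. The endothelial factor *Sox18*, by contrast, had 248 mesodermal reads, 0 from endoderm and 9 from epiblast. These genes were picked after their values were seen, and no test compares them as a group.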
